A study of Mus musculus with 8 samples.

Results

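C1qtnf3, Moxd1 and 1520401A03Rik were 3 of the 28956 genes counted in single cells of mouse femur, and they were picked because they were near absent from unfractured bone and high in fractured bone. That choice rested on the values of the Control and Fracture libraries themselves. For this reason the difference between the 2 groups is described here for the 3 genes and is not tested. C1qtnf3 encodes a secreted protein of the C1q and tumour necrosis factor related family, also called CTRP3 or cartducin, that was first described in growth plate cartilage. Moxd1 encodes a relative of dopamine beta-hydroxylase, a copper-dependent enzyme that adds oxygen to its substrate. 1520401A03Rik is a protein-coding gene that carries only the name of a cDNA clone, and no role can be given for it.

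A fracture of a long bone heals largely through a cartilage template. Cells of the periosteum and the surrounding tissue condense, form a soft callus of chondrocytes and fibrous tissue, and lay down collagen type II and aggrecan. The chondrocytes then enlarge (hypertrophy), switch on collagen type X and Mmp13, and give way to vessels and bone. Adult unfractured femur holds cartilage as well, in the articular surface and the remaining growth plate.

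The Control cells came from the bones of wild-type C57BL/6 females aged 12 weeks. The Fracture cells came from females of the same strain whose left leg had been broken by bending at 10 weeks and fixed with a nail, and bone was taken 14 days later, at an age of 12 weeks. Both groups consisted of bone stromal cells after a depletion of blood cells, and more blood cells were left in Control than in Fracture. The sample labels give 2 numbered samples in each group and 2 replicates of each, 8 libraries in all. Replicates of the same numbered sample were read as droplet libraries of the same cell preparation, which the labels do not state. How many mice stood behind a preparation is not given in the sources used here.

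Libraries held 56543151 to 89126291 unique molecular identifiers (UMIs, each standing for 1 captured transcript), and 45328 of 48903 barcodes were kept as cells. The kept cells held a median of 7711 UMIs in Control and 11351 in Fracture. Any pair of libraries shared at most 23 barcodes. On this reading of the labels the 2 libraries of a preparation were summed, so that n = 2 preparations in each group. Every SD and p-value below measures only the spread between these preparations. Between the 2 libraries of a preparation the mean chi-square per gene was 5.38 to 7.73, more than counting error alone gives. Whether such libraries came from the same suspension of cells was not tested. Levels are given as UMIs of a gene per 1000000 UMIs of the same cells (CPM). Clusters were named from marker genes, and the clustering did not use the 3 genes. The cells called chondrocyte-like formed 2 clusters that carried 10 and 9 of 10 chondrocyte markers counted in the tables.

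All 3 genes lay on the mouse assembly GRCm38 without overlap with another annotated gene. C1qtnf3 (ENSMUSG00000058914.12) was annotated at chr15:10952332-10980150 on the plus strand, with 2 coding transcripts of 6 exons that encode 246 and 319 residues. Moxd1 (ENSMUSG00000020000.7) lay at chr10:24223517-24302790 on the plus strand, with 1 coding transcript of 12 exons and 613 residues. 1520401A03Rik (ENSMUSG00000043747.12) lay at chr17:23704488-23722783 on the minus strand. Its transcript with the longer coding sequence had 41 coding exons for 598 residues, 39 of them a multiple of 3 bases long, with a median length of 33 bases. Among all 232125 annotated coding exons, 41.8% were a multiple of 3 bases long and the median length was 121 bases.

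The promoters are shown because the 3 genes were high in the same group, so that a reader can compare the sequence around 1 RefSeq start of each. Each window runs 5′ to 3′ from 250 bases before that start to 50 bases after it, on the strand of the gene in GRCm38.p6. Capitals mark matches on either strand to TGNGGT, with any base at N. This is a loose spelling of the core that RUNX factors bind, which usually has C or T there. They also mark TATAAA, known from the core promoters of many genes. The windows are chr15:10952082-10952381 on the plus strand for C1qtnf3, chr10:24223267-24223566 on the plus strand for Moxd1 and chr17:23720956-23721255 on the minus strand for 1520401A03Rik. The last gene had 5 listed starts, of which the first was used. Its window lies inside the GENCODE gene, whose 5′ end is at base 23722783.
C1qtnf3: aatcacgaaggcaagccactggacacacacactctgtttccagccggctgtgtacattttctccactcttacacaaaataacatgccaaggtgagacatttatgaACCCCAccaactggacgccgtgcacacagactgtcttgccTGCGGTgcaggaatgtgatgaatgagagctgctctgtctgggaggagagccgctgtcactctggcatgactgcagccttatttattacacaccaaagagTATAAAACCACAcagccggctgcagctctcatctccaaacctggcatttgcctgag
Moxd1: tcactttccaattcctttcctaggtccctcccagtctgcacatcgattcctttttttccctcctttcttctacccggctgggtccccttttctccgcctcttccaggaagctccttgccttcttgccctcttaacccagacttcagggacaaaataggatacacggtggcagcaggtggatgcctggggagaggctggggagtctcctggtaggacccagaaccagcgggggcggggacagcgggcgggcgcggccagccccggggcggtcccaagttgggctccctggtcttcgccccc
1520401A03Rik: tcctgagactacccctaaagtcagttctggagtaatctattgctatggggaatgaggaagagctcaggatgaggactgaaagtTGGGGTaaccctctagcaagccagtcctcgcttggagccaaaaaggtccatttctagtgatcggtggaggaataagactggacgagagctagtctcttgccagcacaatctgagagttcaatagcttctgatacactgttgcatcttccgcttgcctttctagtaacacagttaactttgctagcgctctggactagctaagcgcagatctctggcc
The C1qtnf3 window held 3 matches to TGNGGT, which began at its bases 106, 146 and 251. It also held 1 TATA match at base 245, next to the last of them. The 1520401A03Rik window held 1 match to TGNGGT at base 84, and the Moxd1 window held none. This match and that of C1qtnf3 at base 106 had G at N, while the other matches had C or T. Of 27025 RefSeq promoter windows of the same length, 45.6% held TGNGGT and 14.2% held TATAAA, so a match to TGNGGT alone is common. No window of the 3 held ACAANG, the core bound by SOX factors (41.6% of all windows), or TGANTCA, the site of AP-1 (7.93% of all windows). These letters describe the windows and say nothing on binding.

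In chondrocyte-like cells all 3 genes were higher in both Fracture preparations than in either Control preparation, but they started from different levels. C1qtnf3 stood at 110.7 and 99.9 CPM in Control preparations 1 and 2 and at 912 and 918 CPM in Fracture preparations 1 and 2. Moxd1 stood at 5.70 and 3.33 CPM in Control and at 152 and 162 CPM in Fracture. 1520401A03Rik was found as 5 and 1 UMIs in the Control preparations, which is 0.168 CPM (95% counting interval 0.0545 to 0.392) and 0.0813 CPM (0.00206 to 0.453), and as 8751 and 9171 UMIs in Fracture, which is 98.8 and 90.6 CPM. C1qtnf3 was therefore not near absent from unfractured chondrocyte-like cells, while 1520401A03Rik was found there only as single UMIs.

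The means were 105 ± 7.65 CPM in Control and 915 ± 4.42 CPM in Fracture for C1qtnf3 (SD, n = 2). For Moxd1 they were 4.52 ± 1.68 and 157 ± 6.96 CPM, and for 1520401A03Rik 0.1245 ± 0.0612 and 94.7 ± 5.80 CPM. The fitted log2 difference, Fracture minus Control, was 3.27 for C1qtnf3, 5.25 for Moxd1 and 9.54 for 1520401A03Rik, and the last rests on 6 Control UMIs. In the same cells 19.2% of the 17279 genes tested were called higher in Fracture and 18.1% lower, at an edgeR adjusted p under 0.05, and the median log2 difference over all of them was -0.01. The 3 genes were chosen from this contrast, so their place among the higher genes is not a result. Col2a1, the main collagen of cartilage, had mean levels of 54562 ± 4623 CPM in Control and 62652 ± 482 CPM in Fracture.

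**Figure D1:**
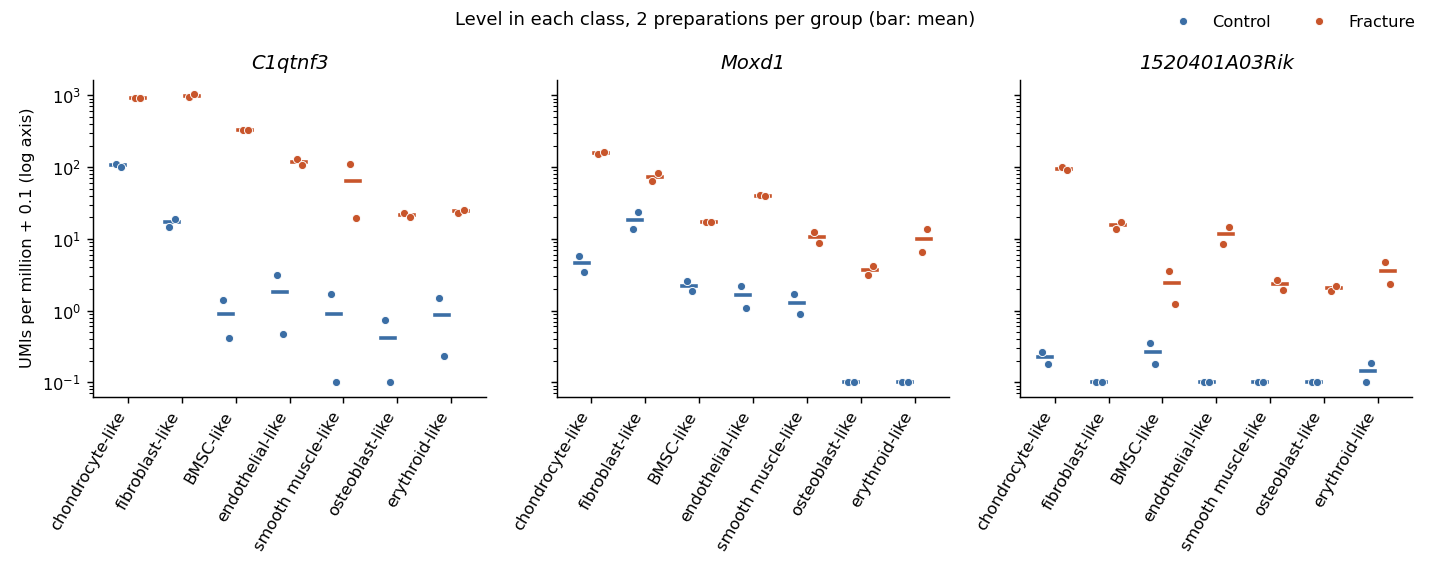
Levels of the 3 genes in 7 cell classes, as CPM plus 0.1 on a log axis, with 1 point for each of 2 preparations per group and a bar at their mean. C1qtnf3 was as high in Fracture fibroblast-like cells (938 and 1040 CPM) as in chondrocyte-like cells, while in Fracture Moxd1 and 1520401A03Rik were highest in chondrocyte-like cells.

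The chondrocyte-like cells of the 2 groups were not the same mixture. Most numerous in Control was the adult growth plate-like subcluster, named from Serpina1a, Serpina1b and Serpina1d, with 39.4% and 41.9% of the cells. Most numerous in Fracture was an unnamed subcluster led by Lcn2, Chrdl2, Sgms2 and Tnn, with 31.8% and 32.3%. The others were an articular-like subcluster with Prg4 (which encodes lubricin), 2 hypertrophic-like subclusters, led by Mmp13 and by Aldh1a3 and Col10a1, a cycling-like subcluster with Top2a, and 2 small unnamed ones led by Cxcl12 and Adipoq (221 cells) and by haemoglobins (145 cells). The Mmp13-led subcluster also carried 7 of 8 osteoblast markers, and 2 of these were among its top 10 genes, as many as its own. Levels within each subcluster are therefore given beside the class total.

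In Fracture C1qtnf3 was spread over 3 kinds of chondrocyte-like cell and was low in the hypertrophic ones. In preparations 1 and 2 it stood at 1527 and 1584 CPM in cycling-like cells, 1487 and 1471 in the Lcn2- and Chrdl2-led subcluster and 1509 and 1382 in articular-like cells. The last 2 ranges overlapped, and the cycling-like values lay just above both. Adult growth plate-like cells held 298 and 325 CPM, the Aldh1a3-led hypertrophic-like cells 199 and 230 CPM, and the Mmp13-led hypertrophic-like cells 98.9 and 116 CPM, and these 3 ranges did not overlap. The 2 small unnamed subclusters reached 798 and 1374 CPM and 1410 and 750 CPM, with a wide spread between preparations.

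In Control the order of the subclusters was another one. Adult growth plate-like cells held 209 and 191 CPM of C1qtnf3, cycling-like cells 164 and 119 CPM, and articular-like cells 44.8 and 42.3 CPM. The Lcn2- and Chrdl2-led cells held 14.3 and 19.5 CPM, and the Aldh1a3-led hypertrophic-like cells 2.72 CPM in one preparation and 0 UMIs in the other, where 3 UMIs would be 1.93 CPM. The Control level of the gene came mainly from the growth plate-like cells, which contributed 68.5% and 79.3% of its chondrocyte-like UMIs there and only 3.22% and 3.40% in Fracture. Within these cells the ratio of the Fracture mean to the Control mean was 1.56, against 8.69 over the whole class and 87.4 in the Lcn2- and Chrdl2-led cells. The ratios within subclusters depend on integration, which placed 252 and 66 Control cells in the Lcn2- and Chrdl2-led subcluster. Without integration the subcluster led by Chrdl2, H2-DMa and Sgms2 held 1 and 0 Control cells, against 2134 and 2292 Fracture cells. The growth plate-like one then held 1664 and 550 Control cells in place of 812 and 284. The only hypertrophic-like one held 57 and 30, and no subcluster was named articular-like. The order of the subclusters and their UMI shares in Control thus rest on integration as well.

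Moxd1 had its highest level in the Lcn2- and Chrdl2-led subcluster and, unlike C1qtnf3, stayed high in hypertrophic-like cells. The Lcn2- and Chrdl2-led cells of Fracture held 245 and 263 CPM, and the Aldh1a3-led hypertrophic-like cells 150.1 and 149.9 CPM. Cycling-like cells held 107 and 123 CPM, Mmp13-led cells 98.0 and 104 CPM, and articular-like cells 86.7 and 91.9 CPM, and the gaps between these 3 were no wider than the spread within the cycling-like cells. The adult growth plate-like cells stood apart with 14.8 and 16.4 CPM. In Control no subcluster with at least 20 cells in each preparation exceeded 19.96 CPM, a value of the Mmp13-led cells.

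In Fracture 1520401A03Rik was highest in articular-like cells, at 318 and 237 CPM. That name rests on integration. Without it a subcluster with 5 of 6 articular markers also carried 8 of 9 marrow stromal cell markers and was left unnamed. The Lcn2- and Chrdl2-led cells held 110.8 and 116.8 CPM and the cycling-like cells 141 and 74.7 CPM, which overlapped. Below them came the Aldh1a3-led hypertrophic-like cells with 50.02 and 67.5 CPM, the Mmp13-led cells with 26.5 and 21.7 CPM and the growth plate-like cells with 2.64 and 1.95 CPM. The 6 Control UMIs lay in growth plate-like (3), articular-like (2) and cycling-like cells (1).

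**Figure D2:**
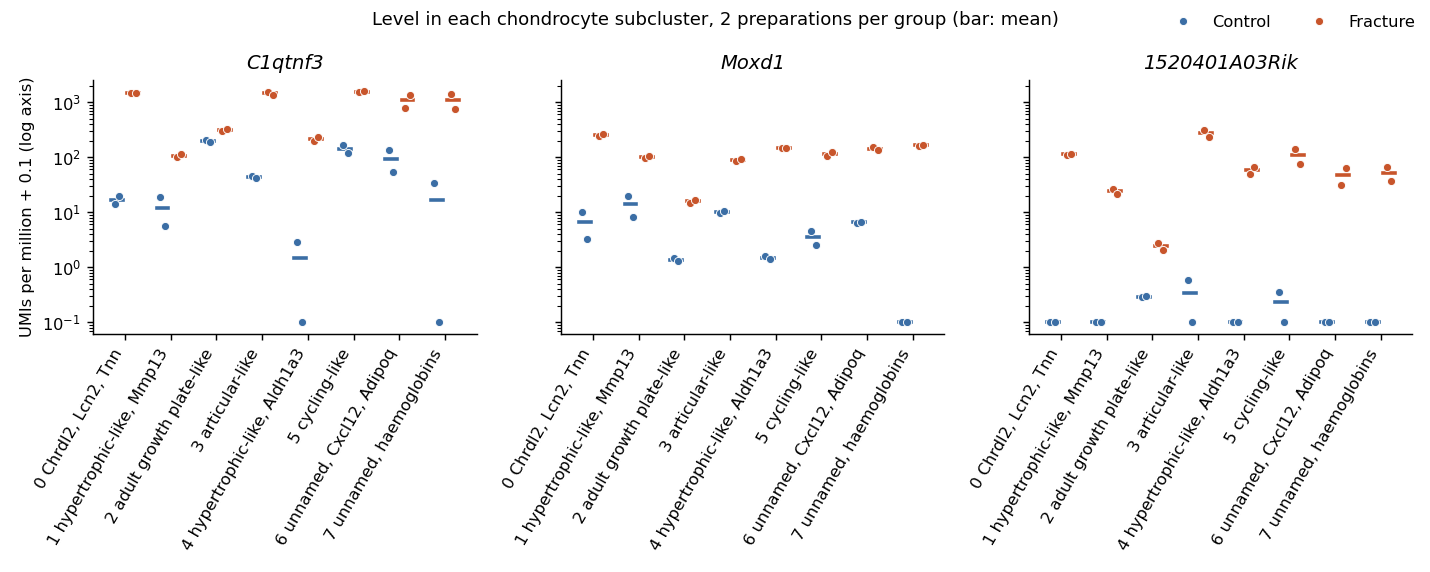
Levels of the 3 genes in 8 chondrocyte subclusters, as CPM plus 0.1 on a log axis, with 1 point for each of 2 preparations per group and a bar at their mean. In Fracture C1qtnf3 fell to about 100 CPM in the Mmp13-led hypertrophic-like cells and stood at 1382 CPM or more in the articular-like, cycling-like and Lcn2- and Chrdl2-led cells.

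The differences between subclusters were tested within the 2 Fracture preparations, with the preparation as a block, by the quasi-likelihood test of edgeR. The subclusters were cut from the other genes of the same cells, so these p-values measure the spread between preparations and are no independent check of the subclusters. All 3 genes differed between subclusters, with a log2 range of 3.85 for C1qtnf3 (adjusted p = 7.9e-18), 4.10 for Moxd1 (8.7e-24) and 6.91 for 1520401A03Rik (4.1e-17), but so did 86.2% of the 14803 genes tested. With a subcluster resolution of 0.4 in place of 0.2 the range for C1qtnf3 was 5.51. The hypertrophic-like subclusters were then set against the mean log2 level of the others. C1qtnf3 was lower by this contrast, at a log2 difference of -2.67 (adjusted p = 6.0e-18), in a comparison where 28.7% of genes were called lower.

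Moxd1 was higher in the hypertrophic-like subclusters, with a log2 difference of 0.41 and an edgeR adjusted p of 2.2e-10, in a comparison where 28.8% of genes were called higher. The others include the growth plate-like cells with their low level. The Lcn2- and Chrdl2-led and the haemoglobin-led cells (161 and 168 CPM) exceeded both hypertrophic-like subclusters, and the cycling-like and the Cxcl12-led cells (151 and 133 CPM) exceeded the Mmp13-led one. With a subcluster resolution of 0.4 in place of 0.2 the difference was -0.023 and was not called (adjusted p = 0.61, range over the alternatives 1.2e-33 to 0.61). The cells set against each other changed there too. Subclusters of 757 and 670 cells, each with 3 of 6 hypertrophic markers, were left unnamed and counted among the others. The Moxd1 difference was 0.66 without integration. It was 0.71 with the Cxcl12-led and the haemoglobin-led subclusters removed, an alternative added after seeing the data. The Mmp13-led subcluster, which also carried osteoblast markers, stayed in. For 1520401A03Rik the log2 difference was -0.36 and was not called (adjusted p = 0.066). It was 0.17 at the resolution of 0.4 (adjusted p = 0.32), and -0.31 and called without the filter on low counts (adjusted p = 7.9e-06), in a range of 7.9e-06 to 0.67 over the alternatives.

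The share of cells with at least 1 UMI depends on depth, so every cell was thinned at random to 1000 UMIs before cells were counted. In chondrocyte-like cells C1qtnf3 was then found in 8.09% and 7.09% of Control cells and in 31.5% and 32.3% of Fracture cells. Moxd1 was found in 0.634% and 0.295% of Control and 11.3% and 13.1% of Fracture cells. 1520401A03Rik was found in 0 of 2052 and 0 of 677 Control cells, where 3 cells would be 0.146% and 0.443% and the exact upper bounds at this thinned depth are 0.180% and 0.543%, and in 4.63% and 4.42% of Fracture cells. Without thinning the Fracture shares were 67.0% and 68.4%, 59.2% and 62.2%, and 14.3% and 14.7%. C1qtnf3 thus had a signal in most Fracture chondrocyte-like cells at full depth, and 1520401A03Rik in a minority.

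By subtype, the thinned C1qtnf3 share in Fracture was 50.6% and 49.6% in the Lcn2- and Chrdl2-led cells, 49.2% and 52.4% in cycling-like and 45.7% and 44.8% in articular-like cells, and fell to 4.98% and 6.18% in Mmp13-led hypertrophic-like cells. For Moxd1 the shares were 19.8% and 22.4% in the Lcn2- and Chrdl2-led cells and 12.0% and 14.4% in the Aldh1a3-led hypertrophic-like cells. For 1520401A03Rik they were 11.7% and 10.7% in articular-like cells. Among the 3 subtypes with most C1qtnf3 the shares and the CPM gave different orders in preparation 1, so no order is read from these shares.

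**Figure D3:**
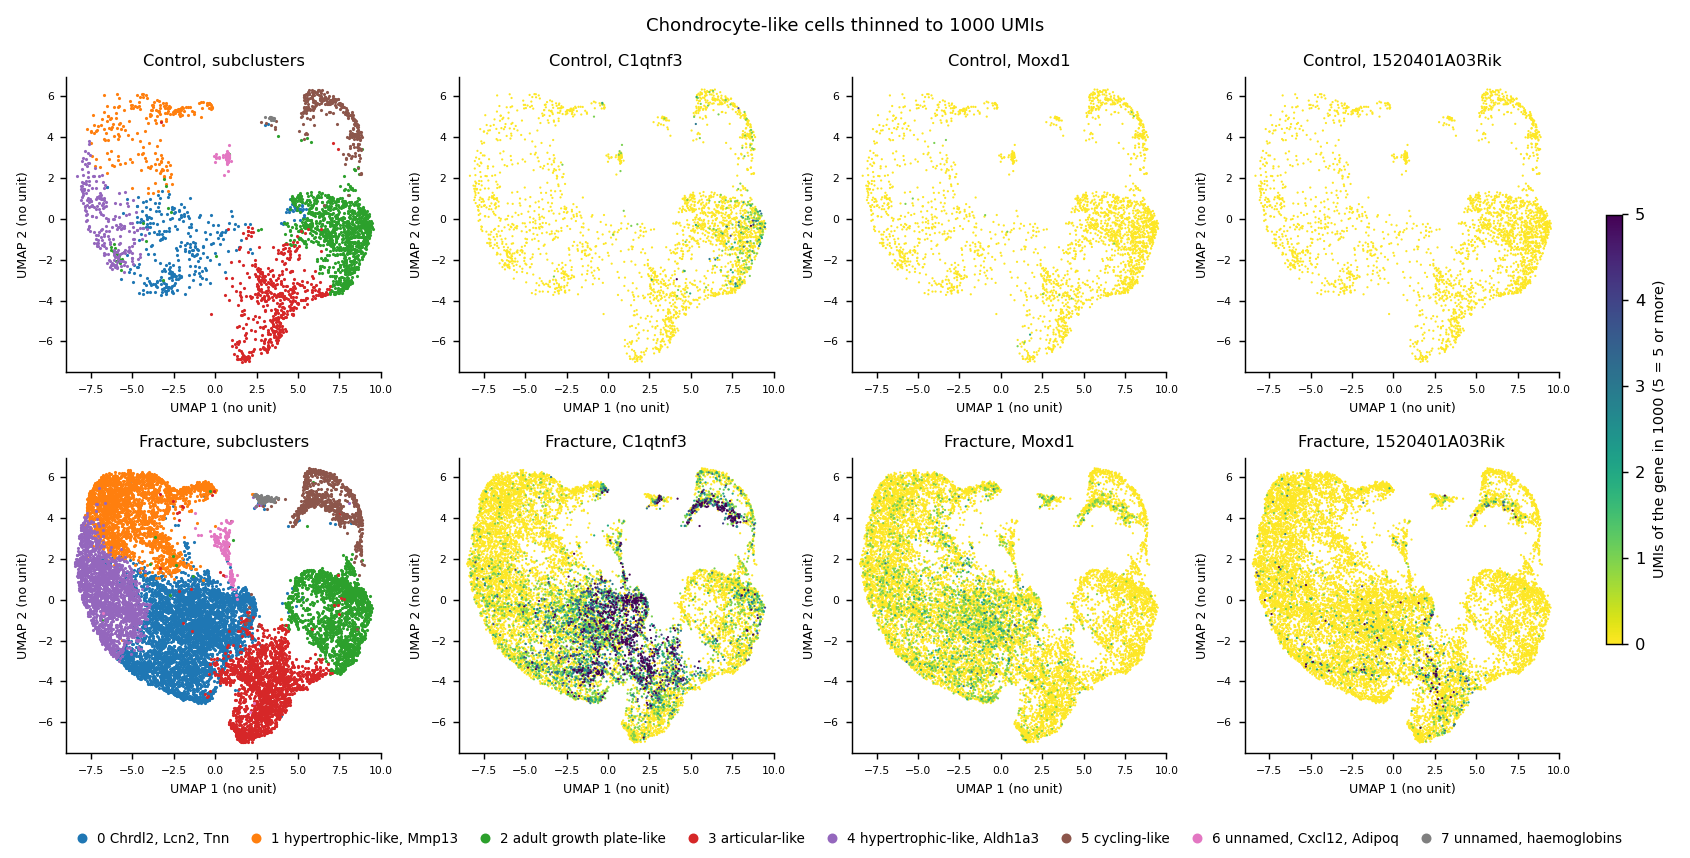
UMAP maps of chondrocyte-like cells (axes without unit), Control above and Fracture below, coloured by subcluster in the left panels and by UMIs of each gene after thinning to 1000 UMIs in the others. C1qtnf3 filled the Fracture regions of the Lcn2- and Chrdl2-led, articular-like and cycling-like subclusters, Moxd1 was spread more evenly over the Lcn2- and Chrdl2-led and hypertrophic-like ones, and 1520401A03Rik appeared as scattered cells.

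The 3 genes differed in how their UMIs were divided among Fracture chondrocyte-like cells. The cells with the most 1520401A03Rik, 69 of 6797 and 77 of 7111 cells or 1.02% and 1.08%, held 50% of all its UMIs in the 2 preparations. For C1qtnf3 the same 50% lay in 6.66% and 7.10% of the cells, and for Moxd1 in 13.01% and 12.8%. The highest single cell held 376 and 356 UMIs of C1qtnf3, 250 and 365 of 1520401A03Rik and 27 and 46 of Moxd1.

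None of the 69 and 77 cells was called a doublet, against 7 of 453 and 4 of 505 of the corresponding C1qtnf3 cells and 1.59% of all cells. Their median depth was 15978 and 17245 UMIs, compared with 12280 and 13176 UMIs over all chondrocyte-like cells. They were not of a single subcluster: 44.9% and 54.5% were Lcn2- and Chrdl2-led, 33.3% and 26.0% articular-like, and the rest was divided among the hypertrophic-like, cycling-like and Cxcl12-led cells.

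**Figure D4:**
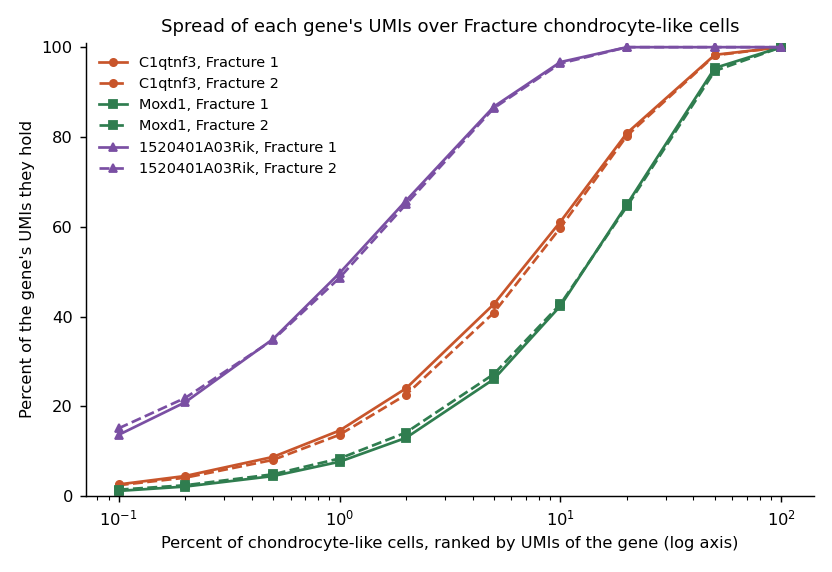
Percent of each gene's UMIs (y axis) held by the Fracture chondrocyte-like cells with most UMIs of that gene (x axis, percent of cells on a log axis), for each of 2 preparations. The top 1% of cells held close to 50% of the 1520401A03Rik UMIs and under 15% of those of C1qtnf3 and Moxd1.

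Cells with UMIs of both C1qtnf3 and 1520401A03Rik were then counted. After thinning, 54.0% and 53.8% of Fracture chondrocyte-like cells with a 1520401A03Rik UMI also had a C1qtnf3 UMI, compared with 30.4% and 31.4% of cells without one. Within the Lcn2- and Chrdl2-led subcluster alone the shares were 65.9% (exact 95% interval 56.8% to 74.2%) and 69.0% (59.7% to 77.2%), against 49.7% (47.5% to 51.9%) and 48.6% (46.4% to 50.7%). In articular-like cells they were 58.0% (48.3% to 67.3%) against 44.1% (40.7% to 47.5%) in preparation 1, and 51.4% (41.6% to 61.1%) against 44.0% (40.7% to 47.3%), which overlap, in preparation 2. In cycling-like cells of preparation 1 they were 79.2% of 24 cells (57.8% to 92.9%) against 47.4% (42.4% to 52.4%). In preparation 2 they were 78.3% of 23 cells (56.3% to 92.5%) against 50.9% (46.1% to 55.8%). In Aldh1a3-led hypertrophic-like cells the shares were 6.67% against 11.9% and 20.6% against 14.0%, so that the order turned between preparations. Moxd1 gave no such difference with 1520401A03Rik: it was found in 11.1% and 14.0% of cells with a 1520401A03Rik UMI and in 11.3% and 13.1% of those without. With a C1qtnf3 UMI, 12.9% and 15.2% of cells had Moxd1, and without one 10.5% and 12.1%. The order differed by subcluster. The shares were 18.4% and 21.1% against 21.3% and 23.7% in Lcn2- and Chrdl2-led cells. In cycling-like cells they were 10.1% and 12.4% against 3.74% and 4.25%. These are counts over cells of 2 preparations, not replicates, and are given as a description.

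Among the other stromal classes C1qtnf3 was highest in fibroblast-like cells. No table says where in the bone these or the articular-like cells lay. In fibroblast-like cells, which were marked by Prg4, Clec3b, Mfap5 and Igfbp6, C1qtnf3 stood at 14.7 and 19.0 CPM in Control and at 938 and 1040 CPM in Fracture. Moxd1 stood at 13.4 and 23.6 CPM in Control and at 64.4 and 81.7 CPM in Fracture, and its Control level was above that of chondrocyte-like cells. 1520401A03Rik had 0 UMIs in both Control preparations and 13.6 and 17.0 CPM in Fracture, a mean at least 22.4-fold higher than 3 UMIs over the Control group would give. Other genes differed in this class too. The mean of Cytl1 was 8961 CPM in Control and 84.1 CPM in Fracture, and that of Col3a1 4398 and 20947 CPM. Whether the class held the same kinds of cell in both groups was not tested. In Fracture 1520401A03Rik and Moxd1 were thus highest in chondrocyte-like cells, while C1qtnf3 was as high in fibroblast-like cells. The genes were picked as high in these Fracture libraries, so this describes where they were high and is no check of a cartilage label. In Control Moxd1 was higher in fibroblast-like cells. Of the Control UMIs of 1520401A03Rik, 6 lay in chondrocyte-like cells and 5 in the bone marrow stromal-like cells described below. Erythroid-like cells held 2 and basophil- and mast-like cells 1, all in preparation 2, where chondrocyte-like cells held 1. These counts allow no ranking.

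Within Fracture, chondrocyte-like cells were compared with each other stromal class by edgeR with the preparation as a block, over 15757 genes. The limits on the p-value were the same as for the subclusters. The 3 genes were also picked as high in these libraries, so the p-values are no independent support for where they were high. C1qtnf3 was not called different from fibroblast-like cells, with a log2 difference of 0.09 (adjusted p = 0.60). It was called without the filter on low counts, at 0.12 (adjusted p = 0.014), and with clusters made without integration, at 0.43 (adjusted p = 0.00028), in a range of 0.00028 to 0.80 over the alternatives. Moxd1 was higher in chondrocyte-like than in fibroblast-like cells by 1.30 (adjusted p = 3.7e-11) and 1520401A03Rik by 2.81 (adjusted p = 6.8e-11), where 29.3% of all genes were called higher. Without integration these 2 differences were 2.03 and 4.21.

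Cells named like bone marrow stromal cells (BMSC-like), marked by Adipoq, Cxcl12 and Lepr, went from 1.29 and 0.311 CPM of C1qtnf3 in Control to 333 and 334 CPM in Fracture. Moxd1 went from 2.45 and 1.79 to 16.8 and 17.1 CPM, and 1520401A03Rik from 0.258 and 0.0778 to 3.52 and 1.15 CPM. The class was not the same mixture in both groups, since the mean level of its marker Adipoq in it was 2160 CPM in Control and 105 CPM in Fracture. Against these cells the chondrocyte-like cells of Fracture were higher by 1.87 for C1qtnf3 (edgeR adjusted p = 5.5e-09), 3.63 for Moxd1 (9.0e-16) and 5.80 for 1520401A03Rik (2.1e-13), where 30.1% of genes were called higher. The C1qtnf3 value depends on which cells are placed in the class. Clusters made without integration left 78 and 104 Fracture cells in it in place of 1073 and 1173, and the C1qtnf3 difference was then 5.79 and that of Moxd1 5.11.

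Endothelial-like cells of Fracture held 130 and 107 CPM of C1qtnf3, 40.2 and 39.8 CPM of Moxd1 and 8.45 and 14.5 CPM of 1520401A03Rik, against at most 3.03, 2.13 and 0 CPM in Control. One endothelial-like cluster of 343 cells, set apart by its depth (median 14286 UMIs against 6105 in the other), carried cartilage genes. Without it the Fracture levels were 22.6 and 20.3 CPM, 21.4 and 22.3 CPM, and 2.56 and 1.79 CPM. Leaving that cluster out lowered C1qtnf3 and 1520401A03Rik more than Moxd1. The chondrocyte-like cells were higher than all endothelial-like cells by 3.48, 2.51 and 3.54 (edgeR adjusted p = 3.1e-12, 4.1e-15 and 6.3e-13), where 37.6% of genes were called higher, and the differences were 5.98, 3.41 and 6.04 with that cluster and 2 chondrocyte subclusters led by markers of other classes (366 cells) removed together.

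The levels in osteoblast-like and smooth muscle-like cells were low as well. Fracture osteoblast-like cells, marked by Bglap and Ifitm5, held 22.9 and 20.3 CPM of C1qtnf3, 3.04 and 4.10 CPM of Moxd1 and 1.77 and 2.10 CPM of 1520401A03Rik. The log2 differences from chondrocyte-like cells were 5.07, 5.10 and 5.26 (edgeR adjusted p = 2.6e-13, 8.1e-17 and 2.1e-13), where 33.2% of genes were called higher. Smooth muscle-like cells held 109 and 19.2 CPM of C1qtnf3, 12.3 and 8.69 CPM of Moxd1 and 2.59 and 1.86 CPM of 1520401A03Rik, the last from 4 and 3 UMIs. Here the differences were 4.34, 4.39 and 5.89 (edgeR adjusted p = 1.4e-10, 1.1e-12 and 3.3e-09), where 24.3% of genes were called higher. The C1qtnf3 difference was 6.00 without Fracture preparation 1 and 3.46 without preparation 2.

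Free RNA from broken cells enters droplets of every cell type, and erythroid-like cells, which should lack the 3 transcripts, give a measure of its level. The class carried all 10 erythroid markers, among them Hba-a1 and Klf1, at a median of 6245.5 UMIs per cell, compared with 13208 and 12150 in the 2 chondrocyte-like clusters. After thinning, C1qtnf3 was found in 3 of 194 and 8 of 259 Fracture erythroid-like cells (1.55% and 3.09%). Moxd1 was found in 1 cell of each preparation (0.515% and 0.386%), and 1520401A03Rik in none, with exact upper bounds of 1.88% and 1.41%. The shares in Fracture chondrocyte-like cells, 31.5% and 32.3%, 11.3% and 13.1%, and 4.63% and 4.42%, were above these in both preparations.

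Levels were also set against cartilage RNA in general. The Fracture level in each class was divided by that in chondrocyte-like cells of the same preparation, for the 3 genes and for 23 cartilage matrix genes such as Col2a1 and Matn1. In erythroid-like cells the median of the 23 genes was 4.45% and 5.10%, and C1qtnf3 stood at 2.53% and 2.73%, Moxd1 at 4.27% and 8.30% and 1520401A03Rik at 4.78% and 2.48%. Of the 11 and 30 Moxd1 UMIs in these cells, 6 and 15 were in a single cell of each preparation. In osteoblast-like cells the 3 genes lay between 1.79% and 2.53%, at or below the medians of 2.99% and 2.73%. In both classes all 3 genes lay within the range of the cartilage genes. The smaller blood classes differed for C1qtnf3. It stood at 51.6% and 18.7% in megakaryocyte-like cells (19 and 21 cells, 129 and 45 UMIs), where the medians were 11.5% and 5.73% and 0 and 1 of the 23 genes were as high. In basophil- and mast-like cells (89 and 97 cells) it stood at 13.5% and 3.67%, against medians of 7.30% and 4.32%, so the erythroid-like cells gave the lowest C1qtnf3 level of these 3 blood classes.

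In fibroblast-like cells the picture differed by gene. C1qtnf3 stood at 103% and 113% and Moxd1 at 42.3% and 50.4%, where the median cartilage gene was at 13.5% and 11.3% and only Fmod and Prelp were higher than these 2 genes. 1520401A03Rik, at 13.8% and 18.8%, lay within the range of the cartilage genes, 11 and 6 of which were at or above it. In BMSC-like cells C1qtnf3 stood at 36.5% and 36.4% and Moxd1 at 11.1% and 10.5%, against medians of 2.91% and 3.21%, while 1520401A03Rik was at 3.56% and 1.27%.

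In endothelial-like cells outside the cartilage-carrying cluster, Moxd1 stood at 14.1% and 13.8% of its chondrocyte-like level. That was above each of the 23 cartilage genes in both preparations, the highest of which was Col11a2 at 8.80% and 7.27%. C1qtnf3 at 2.48% and 2.21% and 1520401A03Rik at 2.59% and 1.97% lay near the medians of 2.74% and 2.36%. The thinned share of these cells with Moxd1 was 2.01% and 2.25%, above the 0.515% and 0.386% of erythroid-like cells, although the intervals of the latter reach 2.84% and 2.13%.

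**Figure D5:**
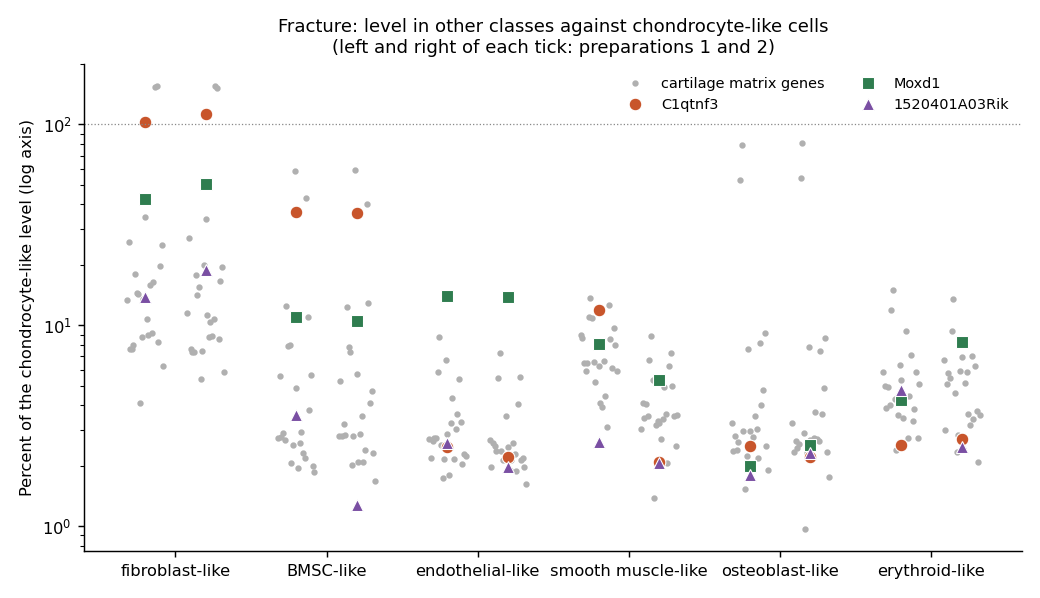
Fracture levels in 6 classes as percent of the level in chondrocyte-like cells of the same preparation (log axis), for the 3 genes and 23 cartilage matrix genes in grey. The endothelial-like cells are shown without the cluster of 343 cells that carried cartilage genes. C1qtnf3 and Moxd1 lay above most cartilage genes in fibroblast-like and BMSC-like cells and among them in erythroid-like and osteoblast-like cells, and Moxd1 lay above all of them in endothelial-like cells.

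Genes with a like pattern were sought over 28 Fracture profiles, the stromal classes and the chondrocyte subclusters in each preparation. Likeness was Pearson's r of log2(CPM + 1), among 5189 genes with a mean of at least 20 CPM in Fracture chondrocyte-like cells. The profiles share libraries, and the class total contains the subclusters, so r is only a measure of likeness. Nearest to C1qtnf3 were Itm2a, a membrane protein known from cartilage precursors (0.95), Fmod, a proteoglycan of collagen fibres (0.94), the imprinted non-coding RNA H19 (0.93), Edil3 (0.91) and Fibin (0.90). Nearest to Moxd1 were the splicing regulators Mbnl1 (0.93) and Mbnl2 (0.92), the lysosomal protease Ctsd (0.91), A230065H16Rik (0.90) and the MHC class II chain H2-Ab1 (0.88). Nearest to 1520401A03Rik were Sfrp5, a secreted inhibitor of Wnt signals (0.97), Chrdl2, a secreted inhibitor of BMP signals (0.88), Moxd1 itself (0.87), Mbnl2 (0.86) and the imprinted gene Peg3 (0.85).

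Between the members r was 0.76 for C1qtnf3 and Moxd1 and 0.73 for C1qtnf3 and 1520401A03Rik, which places the first pair at rank 142 from C1qtnf3 and the second at rank 188. Sfrp5 had the closest pattern of all, yet it was present in Control chondrocyte-like cells at 37.7 and 32.8 CPM and in Fracture at 62.9 and 59.9 CPM (log2 difference 0.95, edgeR adjusted p = 0.0038). Chrdl2 went from 2.55 and 2.195 to 43.1 and 40.3 CPM (log2 difference 4.28, edgeR adjusted p = 0.00099), and Itm2a from 257 and 183 to 996 and 1013 CPM (2.34, adjusted p = 0.0030). Fmod and Edil3, near C1qtnf3 in the Fracture profiles, were not called different between the groups (0.02 and -0.09, adjusted p = 0.90 and 0.54). All nearest genes had passed the filter and were ranked on Fracture values alone, so their calls are no independent support. Over all genes tested 19.2% were called higher. The remaining nearest genes were all called higher by edgeR (adjusted p = 0.0012 to 0.020). Their log2 differences were 1.48 for H19, 1.26 for Fibin, 1.36 for Ctsd and 1.75 for A230065H16Rik. They were 3.58 for H2-Ab1, 1.07 for Peg3, 0.35 for Mbnl1 and 0.66 for Mbnl2.

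The relatives of the 3 genes were read from the same contrast in chondrocyte-like cells. They were listed by gene symbol. A relative counted under another symbol was missed, so the lists may not cover a whole family. Of 28 other genes with a C1q domain, 19 passed the filter, 6 were called higher in Fracture, 4 lower and 9 were not called, with a median log2 difference of 0.47, beside 19.2% higher and 18.1% lower over all genes tested. Among those at 5 CPM or more, C1qtnf1 rose by 1.11 on the log2 scale (adjusted p = 0.013 by edgeR), Emilin1, a glycoprotein of elastic fibres, by 0.58 (0.0059), and Col10a1, the collagen of hypertrophic cartilage, by 1.13 (0.015). C1qtnf4, C1qtnf6, Col8a1, Col8a2 and Adipoq were not called, with differences of -0.09, 0.13, 1.48, 0.06 and -2.43. C1qtnf2, C1qtnf9 and Mmrn2 were the other genes called higher and C1ql1, Cbln1, Emilin2 and Mmrn1 those called lower, all under 5 CPM and named after their values were seen.

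Of the 3 other copper monooxygenases only Pam, which amidates peptides, was tested. It stood at 403 and 404 CPM in Control and at 210 and 225 CPM in Fracture, and it fell (log2 difference -0.74, edgeR adjusted p = 0.0038).

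The lists of cartilage genes give the setting. They were chosen with earlier results of these data known, so their counts and p-values describe the data and are no independent support. They were read over the whole class, as were the relatives above and the neighbours below, and not within subclusters. Growth plate-like cells made up 39.4% and 41.9% of the class in Control and 12.0% and 12.1% in Fracture. The hypertrophic and serpin lists hold genes that also named subclusters. How much of each list difference came from the mixture of cells was not tested. Of 23 cartilage matrix genes tested, 2 were called higher and 7 lower in Fracture (median log2 difference -0.07), beside 19.2% higher and 18.1% lower over all genes tested, with Matn4, a matrilin, at 2.701 and Chad, a leucine-rich matrix protein, at -1.55. Of 14 hypertrophic genes 9 were higher and 1 lower (median 0.73), with the collagenase gene Mmp13 at 2.14 and Runx3 at -1.19. Of 10 articular genes 2 were higher and 6 lower (median -1.19), with the transcription factor Erg at 2.11 and Cytl1 at -3.75. Of 14 chondrocyte transcription factors 4 were higher and 6 lower (median 0.06), with Nfatc2 at 1.84 and Nkx3-2 at -2.02.

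All 5 growth plate serpins were lower (median -3.63), with Serpina1e at -4.61, and 9 of 12 fibrous matrix genes were higher and 1 lower (median 2.82), with Col3a1 at 6.59 and Col12a1 at -0.42. Adjusted p-values of the named genes, from edgeR, lay between 0.0011 and 0.014. Over all genes tested 19.2% were called higher and 18.1% lower, with a median of -0.01. Without either Fracture preparation edgeR called 0 genes in this contrast, with 4595 and 4671 genes at an unadjusted p under 0.05, while DESeq2 called 1183 and 1178 higher and 837 and 836 lower.

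Annotated genes within 200 kb of the 3 genes were read from the same contrast, in which 19.2% of all genes tested were higher and 18.1% lower. Beside C1qtnf3, Amacr, an enzyme of fatty acid breakdown that starts 1606 bases downstream on the same strand, rose by 0.81 on the log2 scale (adjusted p = 0.0051 by edgeR), from 12.8 and 11.5 to 19.7 and 18.6 CPM. Beside Moxd1, Stx7 rose by 0.33 (0.015). Of 7 genes named around 1520401A03Rik, Hcfc1r1 rose by 0.52 (0.0074), 4 fell, namely Tnfrsf12a by 0.58, 9530082P21Rik by 0.85, Flywch1 by 0.80 and Flywch2 by 1.69 on the log2 scale (adjusted p = 0.016, 0.010, 0.0037 and 0.0013), and Thoc6 and Srrm2 were not called (0.14 and -0.15). The counting was not stated to use strand, so where 9530082P21Rik, an antisense gene, overlaps part of Flywch1 and of Kremen2, reads of these genes cannot be told apart.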

How the data were processed

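UMI counts per gene and barcode were deposited by the authors as raw counts of 28956 genes, made from Chromium 3′ libraries and the mm10 genome. The submitters' notes name STAR 2.7.3a, UMI-tools 1.0.0 and featureCounts 1.6.4, and the published methods name STARsolo. No normalisation had been applied. All columns of per-cell values were used.

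Cells with 500 to 6000 genes and at most 25% mitochondrial UMIs and genes in at least 3 cells (26180) were kept. Libraries were integrated in Seurat 5.3.0 with 1944 variable genes, without cell cycle genes and the 3 members, 30 dimensions for integration, 12 components and a resolution of 0.1. Chondrocyte-like cells were clustered again with 13 components at a resolution of 0.2. Doublets scored with scanpy 1.11.5 (722 cells, 1.59%) were kept. UMIs were summed per preparation and class where every preparation compared held at least 20 cells, and tested with edgeR 4.0.16 (R 4.3.3; TMM, filterByExpr, quasi-likelihood test, Benjamini-Hochberg adjustment, calls at an adjusted p under 0.05). DESeq2 1.42.0 was an alternative. Intervals are exact 95% intervals (scipy 1.17.1), floors are 3 counts, and both cover counting error only. Python 3.11.15 was used. Coordinates are from GENCODE M21 (GRCm38) and promoters from RefSeq (GRCm38.p6), which held all 3 members. Of the genes kept, 24381 had an M21 symbol and 1799 did not.

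On simulated counts with known changes, the comparison of Fracture with Control recovered 82.2% of genes changed by 1 and 100% of those changed by 2 on the log2 scale (17348 genes tested). It also called 7 genes that had not been changed. The simulation gave every gene the same spread, not taken from the data, and changed only genes above a minimum expected count. It therefore checks the code and does not measure what 2 preparations can detect here.

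Genes named were the 3 members, relatives and neighbours within 200 kb with at least 5 CPM, the called gene with the largest rise and fall of each other list, and the 5 genes nearest in pattern to each member. The members and lists were chosen with earlier results of these data known. Preparation numbers are shared between the groups by label only: deviations of same-numbered preparations correlated at r = 0.08 over 5244 genes, and the block was therefore an alternative.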

Additional observations from a re-analysis of the deposited data

How the results depend on the processing

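The direction of the 3 differences between Fracture and Control was fixed by the choice of the genes and is no sign of stability. The alternatives were another scaling, no filter, no integration, doublets removed, the block, some mixed clusters removed, DESeq2 and each preparation left out. The mixed clusters removed were the endothelial-like one of 343 cells and the 2 small chondrocyte subclusters of 366 cells. The first was picked by its depth, a median of 14286 UMIs against 6105 in the other endothelial-like cluster, and not by markers. The 2 subclusters were picked by markers of other classes among their top 10 genes. Clusters flagged for markers of 2 classes, other than these subclusters, stayed in. This removal was chosen after seeing the data. Leaving out each preparation gave 9.28 to 10.29 for 1520401A03Rik, and 0 to 4475 genes higher and 0 to 4250 lower in Fracture, the 0 in fits with 1 Fracture preparation, which was assumed to vary like the Control ones. With the preparation number as a replicate block 2043 genes in place of 3121 were lower and 2339 in place of 3324 higher. The numbers pair the preparations by name only, and the block changed no count of the lists by over 1.5 times.

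Leaving out a Fracture preparation gave 0.39 to 0.41 for Moxd1 in hypertrophic-like cells, ranges over subclusters of 4.05 to 4.11 for Moxd1 and 6.93 to 6.94 for 1520401A03Rik, and differences from BMSC-like cells of 1.85 for C1qtnf3 and 3.57 to 3.64 for Moxd1, from endothelial-like cells of 2.40 to 2.49 for Moxd1 and from osteoblast-like cells of 5.03 to 5.16 for C1qtnf3. At a subcluster resolution of 0.4 the hypertrophic-like difference was -0.023 for Moxd1 and 0.17 for 1520401A03Rik, and without the filter -0.31 for 1520401A03Rik. C1qtnf3 differed from fibroblast-like cells by 0.12 without the filter and 0.43 without integration, where 2541 genes in place of 5286 were lower than in BMSC-like cells, a class that then held 78 and 104 Fracture cells. The other causes were not tested.

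Shares of cells move with depth by construction. The means over preparations without thinning and at 2000 UMIs were 67.7% and 42.3% for C1qtnf3, 60.7% and 22.7% for Moxd1 and 14.5% and 6.45% for 1520401A03Rik in Fracture chondrocyte-like cells. In Control they were 26.7% and 11.8% for C1qtnf3 and 0.171% and 0.0252% for 1520401A03Rik, and 4.69% for Moxd1 without thinning. In Fracture erythroid-like cells they were 16.0% and 4.12%, 3.09% and 1.29%, and 2.25% and 0.902%. There Moxd1 was at 0.195% without integration and 0.198% without called doublets.

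Of 198 values of list counts under alternatives, 160 stayed within 1.5 times, and most of the 38 that did not came from leaving out a Fracture preparation. The 5 and 1 Control UMIs of 1520401A03Rik leave its Control level and its fold imprecise, and n = 2 limits every p-value.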
